A study of Mus musculus with 6 samples.

Results

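The EGR family of zinc-finger transcription factors (Egr1, Egr2, Egr3 and Egr4) and the corepressors that bind its members (Nab1 and Nab2) were followed in mouse cortical neurons after NMDA receptor stimulation. These 6 genes were chosen by symbol from the 38293 genes of the deposited count table, each matched exactly 1 row, and all 6 were among the 14642 genes with enough counts to be tested. RNA-seq libraries came from wild-type primary cortical neurons of Swiss-Webster mouse embryos taken at embryonic day 16 and cultured to day 13 in vitro. In the NMDA group (3 libraries), cultures received 50 µM NMDA in the bath for 10 minutes and were collected after another 50 minutes without the drug. The control group (3 libraries) is labelled as untreated, and the labels name no vehicle or mock wash. The labels do not say whether libraries of a group came from separate embryos or cultures, and the protocol text speaks of fewer biological replicates than the 3 libraries listed per group, and the spread behind the p-values may therefore be technical in part.

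EGR genes are transcribed within minutes of calcium entry and ERK signalling, with no need for newly made protein, and EGR proteins bind GC-rich DNA through nearly identical zinc fingers. NAB proteins have no DNA-binding domain of their own: they attach to EGR1, EGR2 and EGR3 through a short inhibitory domain that EGR4 lacks, and they repress by recruiting the NuRD chromatin remodelling complex. Nab2 is itself an EGR target, which makes the pair a textbook negative feedback loop.

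All 6 transcripts were higher in each NMDA library than in any control library, and higher in all 3 pairs of the same replicate number, as were 22.5% of all tested genes. Egr2 averaged 9.89 times its control level, Egr4 4.75 times, Egr1 4.03 times, Nab2 1.81 times, Egr3 1.72 times and Nab1 1.26 times, as ratios of mean CPM (read counts scaled to library size). Egr1, Egr2 and Nab2 passed at an edgeR adjusted p under 0.05 with group as the only term, where 0.376% of all tested genes were called higher. With the replicate number entered as a block, so that each NMDA library is set against the control library of the same number, all 6 passed, and 5.65% of all tested genes were called higher. The DESeq2 Wald test without the block passed all but Nab1 (0.977% of tested genes called higher) and with the block all but Egr3 (2.83%). Complete separation with NMDA on the higher side was seen in 8.18% of all tested genes.

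**Figure D1:**
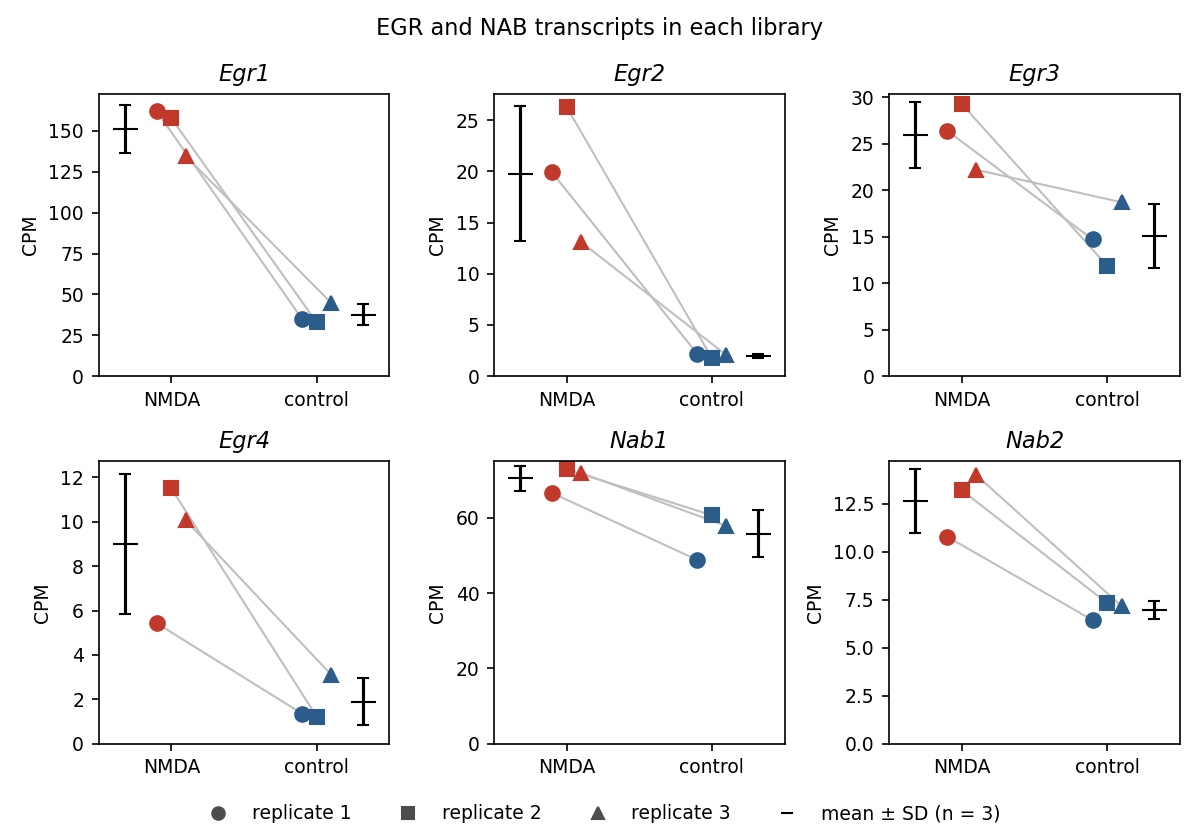
Level of each EGR and NAB transcript in CPM (vertical axes, linear from 0) in the 3 NMDA and 3 control libraries; symbols mark the replicate number, grey lines join libraries of the same number, and black bars give the mean ± SD (n = 3). In each panel every NMDA library lies above every control library, with the widest relative gap for Egr2 (13.1 against 2.16 CPM) and the narrowest for Nab1 (66.6 against 60.7 CPM).

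Egr1, also called Zif268 and widely used as a marker of recently active neurons, had 162, 158 and 135 CPM in NMDA libraries 1, 2 and 3, against 35.0, 32.9 and 44.8 CPM in control libraries 1, 2 and 3. The lowest NMDA library had 3.0 times the level of the highest control library. These values rest on 2416 to 2865 counted reads per NMDA library and 593 to 851 per control library. The log2 fold change was 2.01 ± 0.13 (SE; edgeR adjusted p = 0.000117), the fourth smallest p-value of all tested genes, and it kept its call without each library in turn (log2 1.92 to 2.16). Egr1 lies on chromosome 18 from 34859823 to 34864984 (GRCm38, plus strand).

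Egr2, known for hindbrain patterning and for switching on myelin genes in Schwann cells, had the largest relative change of the 6. It stood at 19.9, 26.3 and 13.1 CPM in NMDA libraries 1, 2 and 3, against 2.16, 1.78 and 2.06 CPM in control libraries 1, 2 and 3. The controls were close to each other at 32 to 40 counted reads, whereas NMDA library 2 stood well above NMDA library 3. The log2 fold change was 3.30 ± 0.27 (SE; edgeR adjusted p = 0.000595), the fourth largest rise of all tested genes, and it kept its call without each library in turn (3.04 to 3.54). Egr2 lies on chromosome 10 from 67535475 to 67542188 (plus strand).

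Egr3, required for muscle spindle development and like Egr1 induced by synaptic activity, had 26.4, 29.3 and 22.2 CPM in NMDA libraries 1, 2 and 3, against 14.7, 11.9 and 18.7 CPM in control libraries 1, 2 and 3. The groups did not overlap, but NMDA library 3 was only 1.19 times above control library 3. The log2 fold change was 0.78 ± 0.17 (SE; edgeR adjusted p = 0.113) and did not pass without the block, while within pairs it was 0.78 ± 0.16 (edgeR adjusted p = 0.0114) and passed. That call was lost when both libraries numbered 1 were left out (log2 0.76) and in the DESeq2 Wald test with the block (adjusted p = 0.101). Egr3 lies on chromosome 14 from 70077203 to 70082614 (plus strand).

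Egr4, also called NGFI-C and needed for sperm maturation, is the least abundant of the family by CPM. It had 5.43, 11.5 and 10.1 CPM in NMDA libraries 1, 2 and 3, against 1.35, 1.22 and 3.11 CPM in control libraries 1, 2 and 3. Control library 3, with 59 reads, stood apart from control libraries 1 and 2, with 25 and 22 reads: its 95% Poisson interval of 2.37 to 4.01 CPM lies above theirs (0.875 to 2.0 and 0.766 to 1.85 CPM; counting error only). The log2 fold change was 2.24 ± 0.39 (SE; edgeR adjusted p = 0.0604), which missed the threshold without the block, and 2.24 ± 0.23 within pairs (edgeR adjusted p = 1.15e-05), which passed. Without control library 3 it passed also without the block (2.81, edgeR adjusted p = 0.0268), as it did without NMDA library 1 (2.51, edgeR adjusted p = 0.0106). Egr4 lies on chromosome 6 from 85511121 to 85513589 (minus strand).

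Nab2, the corepressor that EGR proteins themselves switch on, had 10.8, 13.2 and 14.0 CPM in NMDA libraries 1, 2 and 3, against 6.44, 7.33 and 7.17 CPM in control libraries 1, 2 and 3. It rose by a log2 fold change of 0.86 ± 0.15 (SE; edgeR adjusted p = 0.0490), just inside the threshold, and by 0.86 ± 0.12 within pairs (edgeR adjusted p = 8.05e-05). Without the block that call was lost on leaving out control library 1, 2 or 3 or NMDA library 2 or 3 (log2 0.80 to 0.90, edgeR adjusted p 0.124 to 0.246) and with upper quartile scaling (edgeR adjusted p = 0.0519), and was kept without NMDA library 1. Nab2 lies on chromosome 10 from 127660918 to 127668568 (minus strand).

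Nab1, its paralogue, was the more abundant corepressor and moved least. It had 66.6, 72.9 and 71.9 CPM in NMDA libraries 1, 2 and 3, against 48.8, 60.7 and 57.8 CPM in control libraries 1, 2 and 3. Its log2 fold change of 0.34 ± 0.10 (SE; edgeR adjusted p = 0.205) did not pass without the block and passed within pairs (0.34 ± 0.07, edgeR adjusted p = 0.00347), and by size of log2 change without the block it ranked 934 of 14642. Nab1 lies on chromosome 1 from 52457294 to 52500679 (minus strand).

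**Figure D2:**
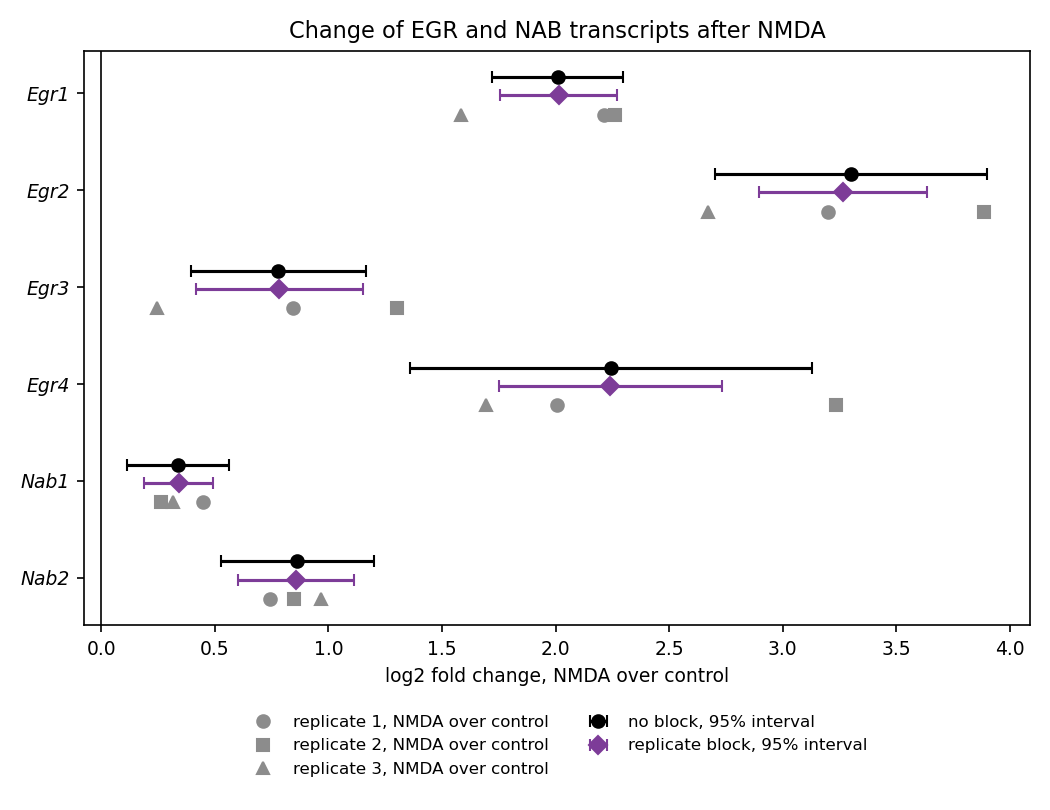
Log2 fold change of NMDA over control (horizontal axis) for the 6 genes: edgeR estimates without the block (black circles) and with the replicate block (purple diamonds), each with its 95% interval, and the 3 within-pair changes of CPM (grey symbols by replicate number). The intervals of Egr1 (1.72 to 2.30 without the block) and Egr2 (2.70 to 3.90) do not meet those of Egr3 (0.39 to 1.16), Nab1 (0.11 to 0.56) and Nab2 (0.52 to 1.20), while that of Egr4 is wide (1.36 to 3.13).

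Within pairs of the same number the 4 EGR genes moved in a common order. Replicate 2 had the largest change for each of them, with folds of 4.79 for Egr1, 14.8 for Egr2, 2.46 for Egr3 and 9.42 for Egr4. Replicate 3 had the smallest, with folds of 3.0, 6.37, 1.19 and 3.24 for the same genes. The corepressors did not follow that order: Nab2 changed most in replicate 3 (1.95-fold, against 1.68 in replicate 1 and 1.80 in replicate 2) and Nab1 most in replicate 1 (1.36-fold, against 1.20 in replicate 2 and 1.24 in replicate 3). Control library 3 had the highest control value of Egr1, Egr3 and Egr4, and NMDA library 3 the lowest NMDA value of Egr1, Egr2 and Egr3. Summed markers of some other cell types had the same order over replicates 1, 2 and 3. On the log2 scale fibroblast and mural markers moved by 0.34, 0.79 and 0.30, and endothelial markers by 0.19, 0.41 and -0.04. Schwann cell markers moved by 0.23, 0.36 and 0.10. These sums rest mostly on Acta2 and Tagln, on Kdr and on Pmp22, and other markers of the same lists differed in direction. Without the block Dcn (log2 -0.18 ± 0.20, SE) and Col1a1 (-0.15 ± 0.66) were lower, while Pdgfrb (0.23 ± 0.17) and Col1a2 (0.48 ± 1.08) were higher. The endothelial marker Pecam1 was at -0.23 ± 0.28 and the Schwann cell marker Prx at -0.01 ± 0.29. The other marker sums did not follow that order: astrocytes 0.11, 0.38 and 0.33, inhibitory neurons 0.08, 0.13 and 0.15, oligodendrocytes -0.17, 0.12 and 0.19. Oligodendrocyte precursors moved by -0.01, 0.06 and 0.36, microglia by -0.15, -0.22 and 0.51, and excitatory neurons by -0.12, -0.24 and -0.27. Markers of neurons in general moved by 0.05, -0.05 and -0.13. With 3 pairs no test of the order was made, and the part of other cell types in it was not tested.

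Promoter sequence was available from RefSeq (GRCm38.p6) for 4 of the 6 genes, as windows of 250 bases before to 50 bases after an annotated start. Egr1 and Egr3 are not among them. The windows are shown because rapid induction is classically tied to CArG boxes (2 C, 6 A or T, 2 G), which bind serum response factor, and to cAMP response elements, while EGR proteins bind GCGNGGGCG. Capitals mark a CArG box, the cAMP response element fragments GACGTCA and TGACG, and the EGR motifs GCGNGGGCG and GCGTGGG, on either strand; GACGTCA and GCGTGGG were chosen after the sequences had been read. The first is Egr2, at the earliest of a cluster of 3 starts, chr10:67537619-67537918 (plus strand); then Egr4, chr6:85513540-85513839, Nab1, chr1:52500399-52500698, and Nab2, chr10:127666654-127666953 (all minus strand).
Egr2: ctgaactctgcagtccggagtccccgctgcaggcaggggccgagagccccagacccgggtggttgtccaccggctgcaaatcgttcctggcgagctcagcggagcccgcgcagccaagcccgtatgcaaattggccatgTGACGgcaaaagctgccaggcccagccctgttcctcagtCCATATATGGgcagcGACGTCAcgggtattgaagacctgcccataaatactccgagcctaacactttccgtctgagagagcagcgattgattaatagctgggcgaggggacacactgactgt
Egr4: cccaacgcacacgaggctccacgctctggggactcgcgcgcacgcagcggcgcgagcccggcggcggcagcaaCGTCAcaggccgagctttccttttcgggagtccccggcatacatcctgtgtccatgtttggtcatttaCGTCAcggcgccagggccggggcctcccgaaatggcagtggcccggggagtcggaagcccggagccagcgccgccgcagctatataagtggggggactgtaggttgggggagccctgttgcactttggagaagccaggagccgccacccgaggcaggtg
Nab1: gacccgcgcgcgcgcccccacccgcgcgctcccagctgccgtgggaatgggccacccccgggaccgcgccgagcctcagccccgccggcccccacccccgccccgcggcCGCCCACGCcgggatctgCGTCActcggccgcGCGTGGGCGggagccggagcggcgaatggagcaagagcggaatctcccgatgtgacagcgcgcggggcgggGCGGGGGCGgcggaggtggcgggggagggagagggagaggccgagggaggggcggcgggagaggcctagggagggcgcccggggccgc
Nab2: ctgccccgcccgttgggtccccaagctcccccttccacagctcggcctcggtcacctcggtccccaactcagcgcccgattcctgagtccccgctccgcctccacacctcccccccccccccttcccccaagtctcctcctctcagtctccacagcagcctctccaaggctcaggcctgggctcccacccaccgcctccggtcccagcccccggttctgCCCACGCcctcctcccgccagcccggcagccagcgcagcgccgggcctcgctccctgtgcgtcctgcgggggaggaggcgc

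The Egr2 window held a CArG box, CCATATATGG, from 72 to 63 bases before the start, and GACGTCA from 57 to 51 bases before it, with 5 bases between them. A CArG box was found in 1.63% of all 32841 promoter windows, and GACGTCA in 3.21%. Of the 5 starts RefSeq lists for Egr2, 4 had a CArG box in their window, 1 of them a different one (CCTTTTTTGG), and the most upstream start had none. The full element TGACGTCA, found in 1.79% of windows, was in none of the windows of the 4 genes. The Egr4 window held TGACG (20.8% of windows) at 177 to 173 and at 109 to 105 bases before the start, both as the complement CGTCA, and no CArG box.

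In the NAB windows EGR motifs were found. The Nab1 window held GCGNGGGCG 3 times, at 141 to 133, 109 to 101 and 38 to 30 bases before the start; 5.55% of windows held it at least once. Each of the 3 overlaps a GC box (GGGCGG, in 35.7% of windows), to which the Sp1 family binds, and the Nab1 window is 81.7% G or C. It also held TGACG once, as CGTCA between the first and the second of these, the fragment seen in the Egr4 window. The Nab2 window held no GCGNGGGCG but 1 GCGTGGG (5.04% of windows), on the complementary strand at 31 to 25 bases before the start. That start, at 127666703, lies inside the annotated gene, whose upstream end is at 127668568. Sequence before that end was not examined. No NAB window held a CArG box. These are matches of letters in one window per start, and a missing match says nothing about binding elsewhere.

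Since the 6 transcripts differ in length, their levels were compared as CPM per kilobase of annotated exon (RPKM). In NMDA libraries Egr1 stood highest at 33.8 ± 3.28 RPKM (mean ± SD, n = 3), followed by Nab1 at 17.2 ± 0.825, Egr3 at 5.89 ± 0.808, Egr2 at 5.82 ± 1.94, Nab2 at 4.31 ± 0.570 and Egr4 at 4.19 ± 1.48 RPKM. In control libraries Nab1 stood highest at 13.6 ± 1.51 RPKM, followed by Egr1 at 8.38 ± 1.42, Egr3 at 3.43 ± 0.778, Nab2 at 2.37 ± 0.161, Egr4 at 0.882 ± 0.491 and Egr2 at 0.588 ± 0.0588 RPKM. Egr2 was thus the lowest of the 6 in control libraries, with a range overlapping that of Egr4, and level with Egr3 in NMDA libraries. The ranges of neighbouring genes in the order overlapped between Egr3 and Egr2, between Egr2 and Nab2 and between Nab2 and Egr4 in NMDA libraries, and between Egr4 and Egr2 in control libraries; the other neighbours did not overlap.

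Summed over the family, EGR transcripts came to 50.5, 54.9 and 43.6 RPKM in NMDA libraries 1, 2 and 3, against 12.4, 11.1 and 16.3 RPKM in control libraries 1, 2 and 3. The makeup of that sum differed between the groups. Egr3 made up 11.8% ± 0.271 of it in NMDA libraries and 25.7% ± 1.38 in control libraries (SD, n = 3 each), and Egr2 11.5% ± 2.63 and 4.51% ± 0.730. Egr1 supplied most of it in every library, 68.1% ± 3.79 in NMDA and 63.4% ± 2.35 in control libraries, with overlapping ranges, as had Egr4 at 8.50% ± 3.07 and 6.36% ± 2.19. For the shares of Egr3 and Egr2 the two-sided exact permutation test gave p = 0.1, the smallest that 3 against 3 libraries allow, and 0.122 after adjustment over the 11 sums, ratios and shares compared.

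**Figure D3:**
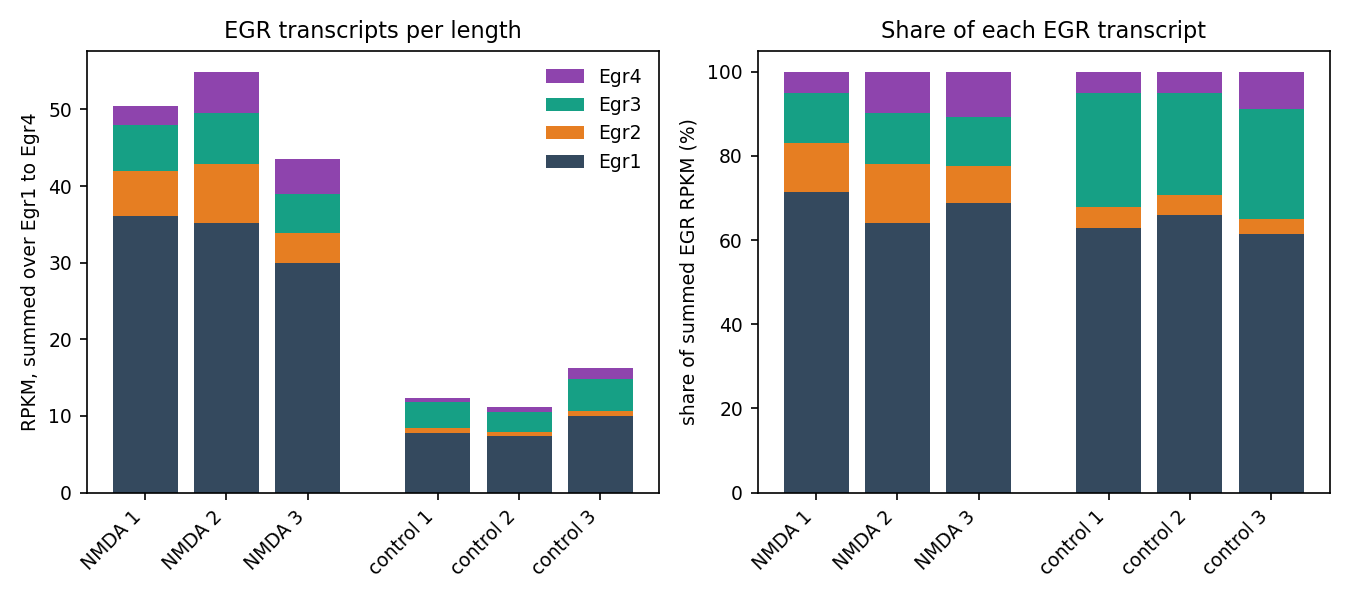
Left, RPKM of Egr1 to Egr4 stacked for each library (linear axis from 0); right, the same as a percent of the library's EGR sum. The NMDA bars reach 43.6 to 54.9 RPKM and the control bars 11.1 to 16.3, and the band of Egr3 narrows to about 12% in NMDA libraries, against about 26% in control libraries.

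The balance between EGR and NAB transcripts was read as a ratio within each library, which no scaling between libraries can move. Protein was not measured, and the EGR sum includes Egr4, whose protein lacks the domain that NAB proteins bind. EGR transcripts per NAB transcript (both as summed RPKM) came to 2.53, 2.47 and 1.95 in NMDA libraries 1, 2 and 3, against 0.880, 0.644 and 0.986 in control libraries 1, 2 and 3. Nab2 supplied 18.4%, 20.2% and 21.3% of NAB transcripts in NMDA libraries and 15.5%, 14.4% and 14.7% in control libraries. The groups did not overlap in either measure (two-sided exact permutation p = 0.1 for each, adjusted p = 0.122).

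Between single members, 15 ratios were compared. The largest shift was in Egr2 over Nab1, by 2.91 on the log2 scale, while Egr2 over Egr3 shifted by 2.46, and by 2.36, 2.59 and 2.43 in replicates 1, 2 and 3. Egr2 over Egr1 also shifted: the log2 ratio of Egr1 to Egr2 was 2.59 ± 0.390 in NMDA and 3.82 ± 0.217 in control libraries (SD, n = 3 each), lower in all 3 pairs. Egr1 over Egr3 was higher by 1.22, and Nab1 over Nab2 differed by -0.51. In 4 ratios, Egr1 over Egr4, Egr2 over Egr4, Egr3 over Nab1 and Egr3 over Nab2, the groups overlapped; the other 11 had no overlap, each with a two-sided exact permutation p = 0.1 (adjusted over the 15, p = 0.136). The 15 ratios are built from 6 genes and are not independent of each other, and with 3 against 3 libraries this permutation test cannot reach a p under 0.05. The exact sign-flip test over the 3 pairs cannot go below p = 0.25.

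**Figure D4:**
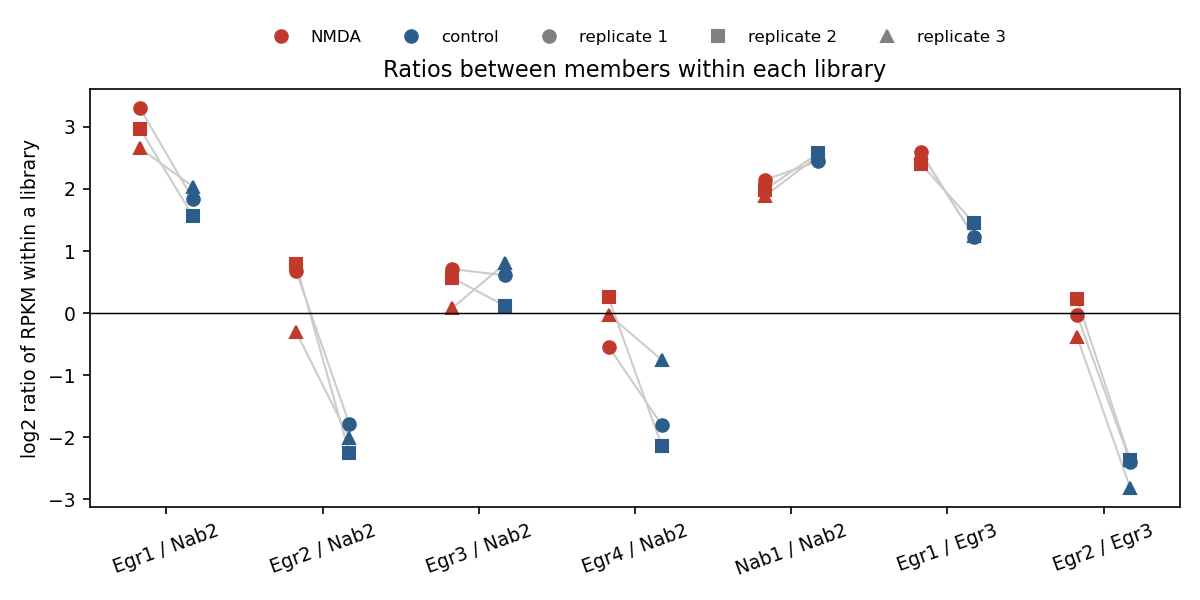
Log2 ratio of RPKM between pairs of genes within each library (vertical axis), NMDA left in red and control right in blue, with lines joining libraries of the same replicate number. Egr1, Egr2 and Egr4 gained on Nab2 in all 3 pairs, whereas the ratio of Egr3 to Nab2 lay from 0.08 to 0.71 in NMDA and from 0.11 to 0.80 in control libraries.

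The EGR genes are short. Egr1 spans 5162 bases, Egr2 6714, Egr3 5412, Egr4 2469 and Nab2 7651, while Nab1 spans 43386; the median of the tested genes with an annotation was 24666 bases. Their exons form 2 blocks in Egr1 and Egr4, 5 in Egr2, 4 in Egr3 and 9 in each NAB gene. The longest transcript was 68.2% G or C for Egr4 and 60.1% for Nab2, against a median of 49.4% over tested genes. Adding offsets for these properties moved Egr4 most, to a log2 change of 2.07, and Nab2 to 0.81, which then missed the threshold without the block (edgeR adjusted p = 0.0724); within pairs all 6 still passed.

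The nearest tested gene on each side of the 6 was examined, 12 in all. None passed without the block; at an unadjusted p under 0.05 edgeR gave 3, namely Etf1, Fbxo41 and Myo1a, where 13.7% of all tested genes were under it, and the DESeq2 Wald test called 0. Ado, 2.32 kb from the end of Egr2, averaged 55.9 ± 1.57 CPM in NMDA and 53.1 ± 2.78 CPM in control libraries (SD, n = 3 each; log2 0.07 ± 0.08 (SE), edgeR adjusted p = 0.745). Within pairs Etf1, a translation termination factor beside Egr1, rose (0.24 ± 0.07, edgeR adjusted p = 0.0361) and Fbxo41 beside Egr4 fell (-0.31 ± 0.08, edgeR adjusted p = 0.0115), against 5.65% of all tested genes called higher and 8.35% lower. Each of these calls was lost in 2 of the 6 other fits with the block, the DESeq2 Wald test among them. Nab2 alone overlaps other genes, all on the opposite strand: it shares 40 exonic bases with Stat6, 151 with Nemp1 and 1050 with Gm16229. Gm16229 had 1 read over all 6 libraries, Stat6 averaged 0.707 ± 0.322 CPM in NMDA and 0.701 ± 0.233 CPM in control libraries, and Nemp1 8.49 ± 0.808 and 9.03 ± 1.20 CPM (SD, n = 3 each). The kit keeps strand, but the strand setting of the counting is not given in the sources used here, so reads in those stretches may have been set aside.

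Genes with the most similar profile were sought among the 12711 tested genes whose log2 CPM averaged 1 or more. The 6 genes themselves were left out, so none of them could be named as nearest to another. The measure was the root mean square distance of log2 CPM over the 6 libraries, each value taken relative to the gene's control mean. The 3 nearest to Egr1 were Klf4 (distance 0.26), Csrnp1 (0.31) and Cebpd (0.32). Those nearest to Egr2 were Junb (0.31), Npas4 (0.33) and Maff (0.34), and those nearest to Egr4 were Arc (0.40), Ccn1 (0.41) and Dusp5 (0.52), a looser match. Egr3 lay nearest to Grasp (0.13), Osmr (0.17) and Fbxo33 (0.18), Nab2 to Coq10b, Sp8 and Sstr2 (each 0.13), and Nab1 to Spr (0.036), Tsc22d2 (0.046) and Hnrnpab (0.046). No test goes with these distances, which are small by construction for genes that change little.

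Of 28 genes listed as known EGR targets, 25 were tested. Without the block 2 of them rose, against 0.376% of all tested genes. These were Nab2, which is also one of the 6 genes reported above, and Arc, a regulator of AMPA receptor trafficking. The list's median log2 change was 0.15 and that of all tested genes -0.0054. Arc had 17.9, 34.2 and 19.1 CPM in NMDA libraries 1, 2 and 3, against 3.30, 3.11 and 4.95 CPM in control libraries 1, 2 and 3 (log2 2.65 ± 0.29 (SE), edgeR adjusted p = 0.00562). Its call was lost without control library 1 or 2 (2.55 and 2.52, edgeR adjusted p 0.0507 and 0.0512).

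Within pairs 6 of the 25 rose and 1 fell, against 5.65% and 8.35% of all tested genes. Besides Nab2 and Arc, those that rose were Ccnd1 (0.48), a cyclin of the G1 phase, F3 (0.44), which encodes tissue factor, Syn1 (0.39), a synaptic vesicle protein, and Id4 (0.29); Vegfa (-0.27) fell. These 5 were named after their values had been seen. Of the 6 other fits with the block, Vegfa lost its call in 3 and Id4 in 1, while Ccnd1, F3 and Syn1 kept theirs in all 6. Among neuronal genes of the list that passed in neither fit, also picked with values seen, log2 changes without the block were 0.22 ± 0.09 (SE) for Gad1, which makes GABA, 0.18 ± 0.11 for the tau gene Mapt, -0.17 ± 0.11 for the NMDA receptor subunit Grin1, 0.11 ± 0.10 for Cdk5r1, the activator of Cdk5, 0.07 ± 0.13 for Syn2, -0.18 ± 0.09 for the GABA-A receptor subunit Gabra4 and 0.01 ± 0.10 for Dlg4, which encodes PSD-95. Rrad, a small GTPase known as a target of EGR2 under NAB control, fell below the count filter and was also singled out after its values were seen. It had 8, 15 and 14 reads in NMDA libraries 1, 2 and 3, against 1, 1 and 2 reads in control libraries 1, 2 and 3, and passed where no filter was applied (log2 3.18 ± 0.71 (SE), edgeR adjusted p = 0.011).

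**Figure D5:**
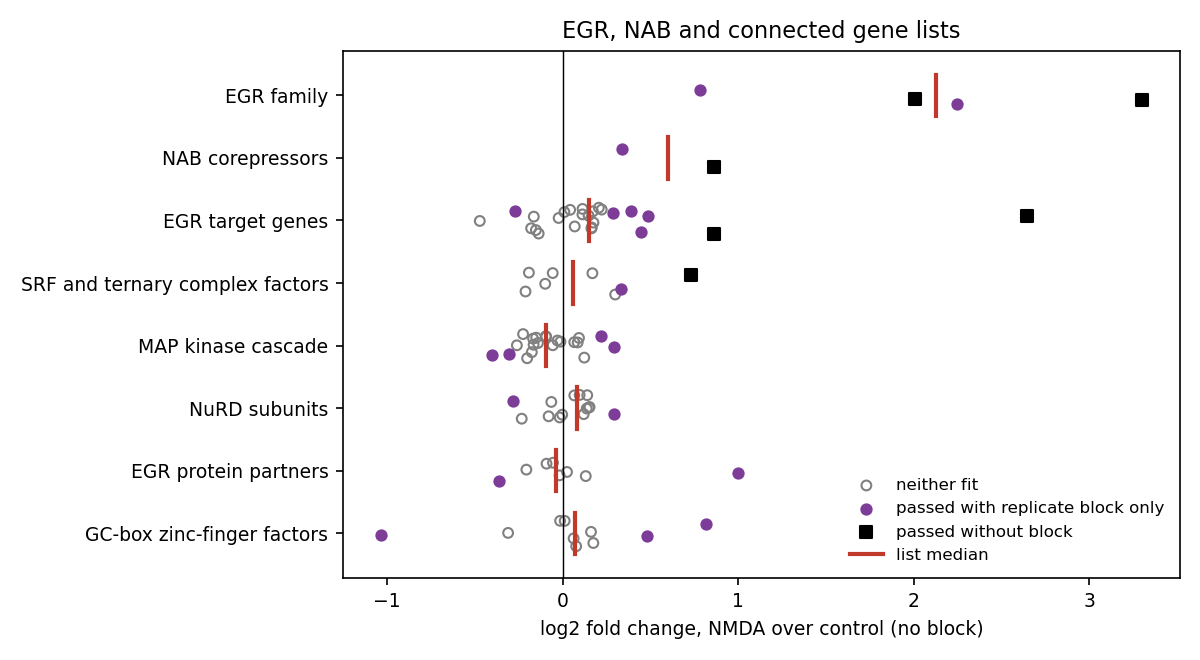
Log2 fold change of NMDA over control without the block (horizontal axis) for every tested gene of the EGR and NAB groups and of 6 connected lists; black squares passed without the block, purple circles passed only with it, open circles passed in neither fit, and red bars are list medians. Members of the EGR family reach 3.30. Nab2 is shown again among the EGR targets, and of genes outside the EGR and NAB groups only Arc and Srf are shown as passing without the block.

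Of 8 tested genes for serum response factor and its partners 1 rose without the block, against 0.376% of all tested genes. This was Srf, with 35.7, 43.3 and 37.6 CPM in NMDA libraries 1, 2 and 3, against 24.5, 22.8 and 23.1 CPM in control libraries 1, 2 and 3 (log2 0.73 ± 0.11 (SE), edgeR adjusted p = 0.0156). That call was kept without NMDA library 1 and lost without each of the other 5 libraries in turn (0.65 to 0.77, edgeR adjusted p 0.0507 to 0.134). Within pairs, where 5.65% of all tested genes were called higher and 8.35% lower, Ets2 (0.33) rose as well. That call was lost in 2 of the 6 other fits with the block, and Ets2 is named after its value was seen. Of 21 genes of the MAP kinase cascade none passed without the block, where 0.0546% of tested genes were called lower; those with small p included Rasgrf2 (-0.40 ± 0.12, edgeR adjusted p = 0.213) and Mapk3 (0.22 ± 0.09, edgeR adjusted p = 0.321). Beside the same shares within pairs, Map2k1 (0.30) and Mapk3, which encode the kinases MEK1 and ERK1, rose, and Rasgrf2, an exchange factor for Ras, fell. The Mapk3 call was lost in 5 of the 6 other fits with the block (log2 0.17 to 0.26) and that of Map2k1 in 1, while that of Rasgrf2 was kept in all 6.

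The NuRD subunits that NAB proteins recruit, 14 tested, had none past the threshold without the block and a median log2 change of 0.08. Within pairs 5.65% of all tested genes were called higher and 8.35% lower. Beside those shares, 1 of the 14 rose, Mbd3 (0.29), and 1 fell, Chd5 (-0.28), a remodelling ATPase of neurons. Gatad2b, next by p, was at -0.23 ± 0.12. Of the 6 other fits with the block, the Mbd3 call was lost in 3 (the DESeq2 Wald test, GC and length offsets, and without number 2) and that of Chd5 in 2 (without number 2 or 3). Of 8 proteins known to bind or modify EGR factors none passed without the block. Within pairs, beside the same shares, 1 rose, Cebpb (1.0 ± 0.23, SE), and 1 fell, Tet1 (-0.36), a DNA demethylase that EGR1 can recruit. Cebpb was low, at a mean of 3.06 CPM in NMDA and 1.53 CPM in control libraries. The acetyltransferase gene Ep300 (-0.21 ± 0.10) passed in neither fit. Among 10 tested zinc-finger factors of GC-rich sites none passed without the block. Within pairs, beside the same shares, Sp8 (0.82) and Sp9 (0.49), factors of interneuron development, rose and Sp7 (-1.06 ± 0.27, SE) fell. Sp7 was low, at a mean of 1.19 CPM in NMDA and 2.47 CPM in control libraries. Calls of Cebpb and Sp7 were lost in the DESeq2 Wald test with the block, and that of Sp7 also without number 3; Tet1, Sp8 and Sp9 kept theirs in all 6 other fits. At an unadjusted p under 0.05 edgeR without the block found 3 of the 21 MAP kinase genes (Rasgrf2 and Mapk3 among them), 1 NuRD gene (Mbd3), 2 EGR partners (Cebpb and Tet1) and 3 GC-site factors (Sp7, Sp8 and Sp9), beside 13.7% of all tested genes. The DESeq2 Wald test without the block called 0 MAP kinase and 0 NuRD genes, and 1 gene in each of the other two lists, Tet1 and Sp8.

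Counted reads per library ranged from 15417234 to 19183999. Markers shared by neurons in general summed to 5436 to 6345 CPM in NMDA and 5640 to 6230 CPM in control libraries. Within pairs, where 5.65% of all tested genes were called higher and 8.35% lower, Rbfox3 and Tubb3 rose. Excitatory neuron markers summed to 950 to 1140 CPM in NMDA and 1120 to 1251 CPM in control libraries, lower in all 3 pairs (-0.12, -0.24 and -0.27 on the log2 scale); within pairs Camk2a fell and Neurod2 rose. Inhibitory neuron markers summed to 597 to 641 CPM in NMDA and 546 to 584 CPM in control libraries, and Sst rose within pairs. Of the 6 other fits with the block, Neurod2 and Sst each lost their call in 3 and Tubb3 in 1. Rbfox3 and Camk2a kept theirs in all 6.

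Astrocyte markers were also present, at 2335 to 3562 CPM in NMDA and 2161 to 2832 CPM in control libraries. In edgeR without the block 0 of 9 passed (2 at an unadjusted p under 0.05, and 0 with the DESeq2 Wald test), and within pairs 7 rose, against 5.65% of all tested genes. Without both libraries numbered 2, each of these 7 calls was lost. Fibroblast and mural markers summed to 142 to 258 CPM in NMDA and 112 to 150 CPM in control libraries, and within pairs 2 of 6 rose, Acta2 and Tagln. Acta2 lost its call in 1 of the 6 other fits with the block, and Tagln kept its own in all 6. Oligodendrocyte markers stood apart in the libraries numbered 1, at 204 CPM in NMDA library 1 and 229 CPM in control library 1, against 80.8 to 81.0 CPM in NMDA libraries 2 and 3 and 70.9 to 74.3 CPM in control libraries 2 and 3, and Mog fell within pairs. Within pairs 8.35% of all tested genes were called lower, and the Mog call was lost in 3 of the 6 other fits with the block. Oligodendrocyte precursor markers summed to 616 to 878 CPM in NMDA and 505 to 885 CPM in control libraries, with no marker called in either fit.

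Markers of Schwann cells, in which Egr2 is known best, summed to 47.2 to 68.1 CPM in NMDA and 40.3 to 62.2 CPM in control libraries, nearly all of it Pmp22, which rose within pairs. Within pairs 5.65% of all tested genes were called higher, and the Pmp22 call was lost in 3 of the 6 other fits with the block. Endothelial markers summed to 14.0 to 23.8 CPM in NMDA and 12.3 to 18 CPM in control libraries; Kdr supplied most of it, with a mean of 15.8 CPM in NMDA and 12.8 CPM in control libraries, and Cldn5 was at 0 in all 6. Microglial markers summed to 3.95 to 4.74 CPM in NMDA and 3.32 to 5.05 CPM in control libraries. EGR genes are expressed in several of these cell types, and the part of RNA from other cell types in the changes was not tested. In bulk RNA, more cells of a type and more RNA per cell cannot be told apart.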

How the data were processed

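RNA was measured by stranded poly(A) RNA-seq in 6 libraries. The authors deposited raw read counts per gene; per the submitters' processing notes, Trimmomatic, TopHat and HTSeq were used with mm10 and GRCm38.p6, with no version, annotation release or strand setting given in the sources used here. Totals were 15417234 to 19183999 counts, which sets the counting error given beside low values. Every column was used.

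Counts were tested with edgeR 4.0.16 in R 4.3.3: TMM scaling after the tool's own filter on low counts (at least 10 reads in enough libraries, at least 15 in all), robust quasi-likelihood fits on group alone, and Benjamini-Hochberg adjusted p-values over all 14642 tested genes at 0.05. CPM uses total counts and TMM factors; RPKM divides it by the merged exon length in GENCODE M21 (GRCm38). Two-sided exact permutation tests of per-library ratios used SciPy 1.17.1. The fit was tested on simulated counts.

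The labels do not say what a replicate number stands for. Same-numbered libraries deviated together from their group means (r = 0.54, 0.38 and 0.49, each above the limit of 0.1). The libraries were treated as pairs on that ground, from the data. Differently numbered libraries had r = -0.41 to -0.02. Deviations from a group mean cancel within the group, so positive r for the same numbers lowers the other r values. Those are therefore no separate evidence for the pairing. Libraries of a group differed beyond sampling noise (chi-square per degree of freedom 8.17 to 59.0). The 6 genes and the lists were chosen with earlier results of these data known. Named genes were the 6, list members past the threshold without the block (else up to 3 with the smallest p), the 3 nearest profiles and the neighbours; others are said to be outside that rule. Some genes of the lists are not reported here. Alternatives were DESeq2 1.42.0 (size factors and Wald test), upper quartile scaling, other filters, the block and each library left out; offsets for GC and length (mgcv 1.9.3) and variants of the block were added after seeing the data.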

Additional observations from a re-analysis of the deposited data

How the results depend on the processing

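Egr1 and Egr2 kept their direction and call under all 19 alternatives (log2 1.89 to 2.25 and 2.94 to 3.55), and none of the 6 genes turned its direction. The calls of Egr3, Egr4, Nab1 and Nab2 depended on the setting, though Nab2 passed in the edgeR fit of all 6 libraries with and without the block. With the replicate block, Egr3 (0.78), Egr4 (2.24) and Nab1 (0.34) passed; with DESeq2 size factors beside the block they were 0.79, 2.25 and 0.35, and with GC and length offsets beside it 0.76, 2.05 and 0.32. In blocked fits without both libraries numbered 1, 2 or 3, Egr4 was 2.32, 1.81 and 2.68 and Nab1 0.30, 0.38 and 0.37, all passing; Egr3 passed at 0.54 without number 2 and 1.08 without number 3. These fits have 1 residual degree of freedom. The DESeq2 Wald test called Egr3 (0.79) and Egr4 (2.26), and with the block Egr4 (2.29) and Nab1 (0.35); no low-count filter called Egr3 (0.78). Without the block Nab2 missed with upper quartile scaling (0.87) and with GC and length offsets (0.81). It also missed there without control library 1, 2 or 3 or NMDA library 2 or 3. Leaving out 1 library gave 0.80 to 0.97 for Nab2, 2.01 to 2.81 for Egr4, 0.63 to 0.97 for Egr3 and 0.25 to 0.40 for Nab1.

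Counts over all genes were 55 higher and 8 lower without the block and 828 and 1223 with it. They were 143 and 151 with the DESeq2 Wald test (415 and 502 with the block), 130 and 130 without a filter, 926 and 1151 with the block and DESeq2 size factors, and 883 and 1102 with the block and offsets. Without both libraries numbered 1, 2 or 3 the blocked fit gave 1341 and 1366, 335 and 683, and 705 and 758. DESeq2 size factors gave 5 lower and offsets alone 4. Leaving out 1 library gave 19 to 89 higher and 0 to 57 lower: 89 and 57 without NMDA library 1, 35 and 1 without control library 1, 19 and 1 without control library 2, and 38 to 42 higher with 0 to 2 lower without each of the others. The number of ratios without overlap was 11, and 11 to 13 when 1 library was left out; 12 had the same sign in all 3 pairs. The causes of these shifts were not tested. Low depth limits Egr2 and Egr4 in control libraries most, at 22 to 59 reads.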
